A study of Saccharomyces cerevisiae with 15 samples.

Results

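The 3′ part of the 18S rRNA gene is taken here as the stretch of the yeast 35S gene from position 1601 to position 2500, counted from the 5′ end of the 35S gene. It was chosen by position alone: it holds 900 of the 6858 positions, and it corresponds to nucleotides 901 to 1800 of 18S rRNA. On the R64 assembly it spans chromosome XII from 465070 to 465969 on the minus strand, within RDN18-2 (465070 to 466869) and the 35S precursor gene RDN37-2 (460712 to 467569). The gene is repeated in tandem, and the annotated copies RDN18-1 and RDN18-2 differed at 0 positions, so each value is a sum over copies. Positions 2499 and 2500, the last bases of the gene, were at 0 in all 15 libraries, as was the next position, 2501, in the spacer ITS1. The other 898 positions were above 0 in every library, and all 898 passed the filter on low values in every comparison.

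The samples were NET-seq (native elongating transcript sequencing) libraries, which count the 3′ ends of RNA purified with RNA polymerase I (Pol I). All came from wild-type *Saccharomyces cerevisiae* whose second largest Pol I subunit, Rpa135, carried a (His)7-(HA)3 tag used for the immunoprecipitation. There were 5 groups of 3 libraries that differed in what was done to the lysate. Untreated lysate received neither a cation nor an incubation. The CaCl2 group received 5 mM CaCl2 for 2 min at 37 °C, and the CaCl2 + MNase group received 100 U/µL of micrococcal nuclease as well, an enzyme that needs calcium and cuts DNA and RNA. The MnCl2 group received 10 mM MnCl2 for 20 min on ice and stood another 30 min after EDTA, and the MnCl2 + DNase I group received 100 U/mL of DNase I as well, which cuts DNA. All 4 treated groups received EDTA to 5 mM. Since every incubation included a cation, the cation and the incubation cannot be told apart. The study's methods describe a separate culture for each replicate of the wild-type strain. Whether this also holds for the treated libraries, and whether libraries of different groups share a culture, is not given in the sources used here, so for those p-values measure a spread that may be technical.

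18S rRNA is the RNA of the small ribosomal subunit. Its 3′ part runs from within the central domain through the 3′ major domain, which forms the head of the subunit, to the 3′ minor domain, which carries the decoding helix and the base-methylated hairpin near the 3′ end. The mature 3′ end is made late, in the cytoplasm, by the endonuclease Nob1. Several nucleotides of this stretch are modified while the subunit is assembled. A uridine in the head is converted to pseudouridine, methylated by Nep1 (Emg1) and given an aminocarboxypropyl group by Tsr3. A pair of adjacent adenosines near the 3′ end is dimethylated by Dim1, and a cytidine just upstream of them is acetylated by Kre33. The uridine and the adenosine pair carry groups on the base-pairing face, where reverse transcriptase is known to stop, and NET-seq libraries are read through a reverse transcription step. Mature 18S rRNA is abundant, and a 3′ end of nascent RNA and one of mature rRNA at the same nucleotide cannot be told apart in these data.

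The sequences that the results turn on are printed as RNA, 5′ to 3′, from R64, because the changes fall at single nucleotides. In the first pair, capitals mark runs of nucleotides with almost no counted 3′ ends in the MnCl2 groups. The first capital of the first line is the uridine of Nep1 and Tsr3, and the first capital of the second line is the second Dim1 adenosine.
Nucleotides 1181 to 1210 of 18S (chrXII:465660-465689, minus strand): uuaauuugacUCAACACGGGGaaacucacc
Nucleotides 1771 to 1800 of 18S (chrXII:465070-465099, minus strand): uccguaggugaACCUGCGGAAggaucauua
The same 3′ end is shown again with the last 5 counted positions in capitals, and the start of ITS1 follows with its position at 0 in capitals.
Last 5 counted positions of 18S: uccguaggugaaccugcggaaggAUCAUua
Start of ITS1 (chrXII:465050-465069, minus strand): Aagaaauuuaauaauuuuga
The next lines show other single nucleotides described below, with the counted 3′ end in capitals.
Around nucleotide 931 (chrXII:465929-465949, minus strand): ugaagacuaaCuacugcgaaa
Around nucleotide 1067 (chrXII:465793-465813, minus strand): uuuuaaugacCcacucggcac
Around nucleotide 1238 (chrXII:465622-465642, minus strand): ggauugacagAuugagagcuc
Around nucleotide 1776 (chrXII:465084-465104, minus strand): agguuuccguAggugaaccug

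Values are CPM, the 3′ ends counted at a position after the 35S gene up to the terminator T1 is scaled to a sum of 1000000 in each library. The deposited CPM were whole multiples of 1 read in 13 libraries, which held 2835792 to 7033065 reads on the 35S gene, of which 449476 to 1125066 ended in the 3′ part of 18S. The depth of CaCl2 replicate 3 and CaCl2 + MNase replicate 3 could not be settled. CPM are shares of a library, so more 3′ ends in one stretch and fewer elsewhere cannot be told apart. Positions were tested with limma on log2(CPM + 1) and p-values adjusted by Benjamini-Hochberg over the whole 35S gene. Called means an adjusted p below 0.05, and the pseudocount of 1 is part of every log2 change given for a position.

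The median occupancy over the 898 positions was 99.4 CPM in the untreated group and lay between 113 and 138 CPM in the treated groups, and the profile was uneven in all of them. The 10th and 90th percentiles of the group mean were 33.0 and 287 CPM in untreated, a ratio of 8.70. That ratio was 8.40 with CaCl2, 7.33 with CaCl2 + MNase, 12.1 with MnCl2 alone and 13.2 with MnCl2 + DNase I. The highest position was nucleotide 1798 in every group, the last counted nucleotide of the gene. The lowest position lay between nucleotides 1785 and 1789 in every group, 9 to 13 nucleotides upstream of the highest.

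**Figure D1:**
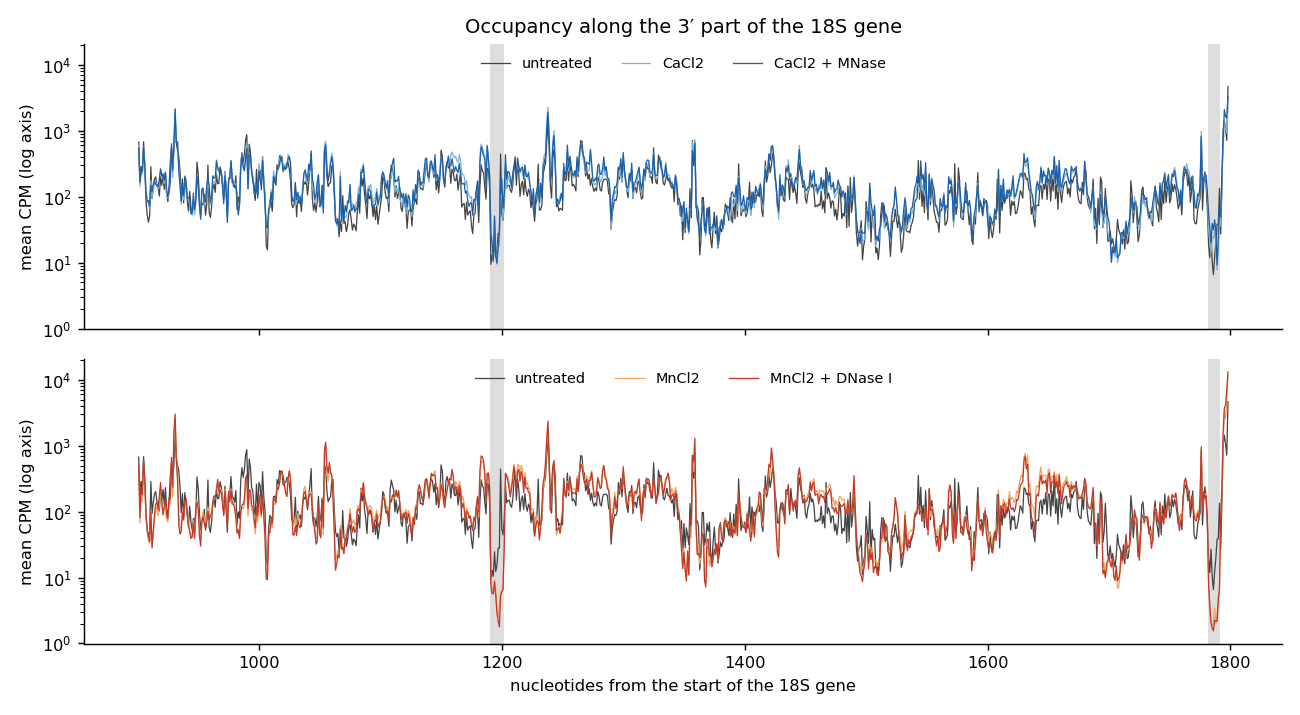
Mean CPM of each group (log axis) at each counted position of the 3′ part of 18S, by distance from the start of the 18S gene in nucleotides, with untreated, CaCl2 and CaCl2 + MNase above and untreated, MnCl2 and MnCl2 + DNase I below. Grey bands mark nucleotides 1191 to 1201 and 1782 to 1791, where the MnCl2 groups fall below 12 CPM, and every group peaks at nucleotide 1798.

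The 3′ part of 18S held a larger share of the library in every treated group than in untreated lysate. The untreated libraries had 13.7%, 13.1% and 13.1% of their CPM there (13.3% ± 0.337, SD, n = 3). The share was 15.6% ± 0.259 with CaCl2, 16.2% ± 0.315 with CaCl2 + MNase, 16.8% ± 0.362 with MnCl2 alone and 17.2% ± 0.369 with MnCl2 + DNase I (SD, n = 3 each). All 12 treated libraries lay above all 3 untreated ones, and the MnCl2 and MnCl2 + DNase I libraries overlapped. No p-value is given for this sum over the chosen positions.

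**Figure D2:**
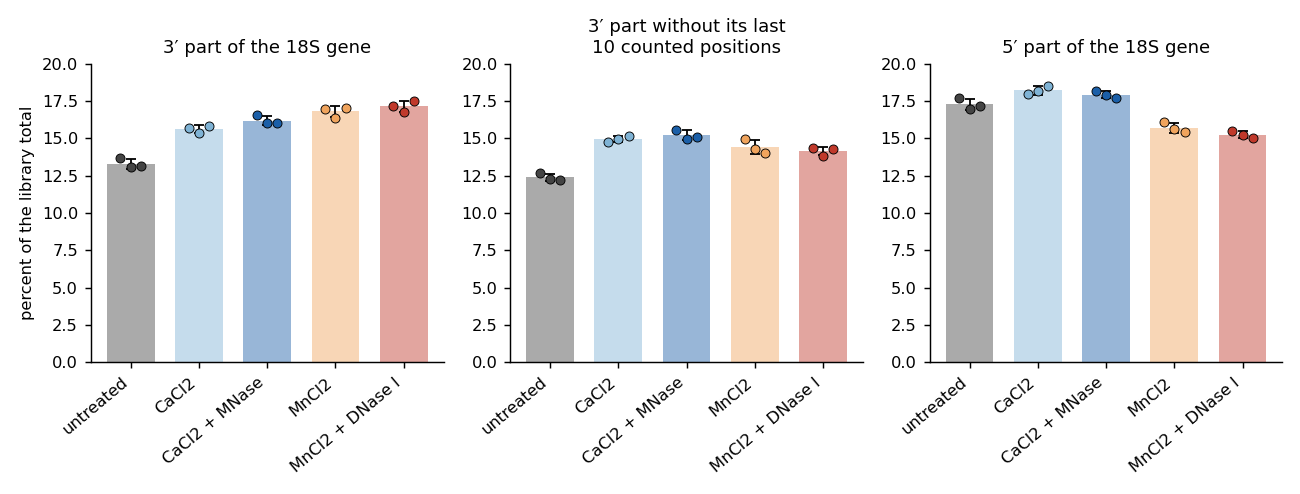
Percent of the library total in the 3′ part of 18S (left), in the same stretch without its last 10 counted positions (middle) and in the 5′ part of 18S (right), with bars at the group mean, error bars of 1 SD and a point for each library. The MnCl2 group stands at 16.8% on the left and at 14.4% in the middle, below the 14.95% of CaCl2.

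The treatments differed in where the added share lay. The last 10 counted positions made up 6.96% ± 0.540 of the signal of the 3′ part in untreated, 4.22% ± 1.80 with CaCl2, 6.03% ± 0.427 with CaCl2 + MNase, 14.3% ± 3.11 with MnCl2 alone and 17.5% ± 1.04 with MnCl2 + DNase I (SD, n = 3 each). Without these 10 positions the share was 12.4% in untreated, 14.95% with CaCl2, 15.2% with CaCl2 + MNase, 14.4% with MnCl2 alone and 14.2% with MnCl2 + DNase I. The treated libraries remained above all untreated ones, while the log2 ratio of MnCl2 to CaCl2 went from 0.11 to -0.053 and these groups then overlapped. The CaCl2 and CaCl2 + MNase libraries overlapped as well without these positions. The 5′ part of 18S (nucleotides 1 to 900), for comparison, went from 17.3% ± 0.390 in untreated to 18.2% ± 0.282 with CaCl2, 17.9% ± 0.238 with CaCl2 + MNase, 15.7% ± 0.334 with MnCl2 alone and 15.3% ± 0.252 with MnCl2 + DNase I. The 3′ part thus made up 43.5% ± 0.157 of the 18S signal in untreated, 46.2% ± 0.462 and 47.5% ± 0.232 in the 2 CaCl2 groups, and 51.7% ± 0.709 and 52.9% ± 0.787 in the 2 MnCl2 groups.

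Position by position, CaCl2 raised more of the 3′ part than it lowered. Against untreated, 317 of 898 positions were called, 259 higher and 58 lower, where 32.3% of positions were called over the whole 35S gene, 16.1% higher and 16.3% lower. The median log2 change of the 898 was 0.30, against 0.07 over all positions tested. It was 0.19 in the 5′ part of 18S, 0.13 in the 25S rRNA gene and -0.70 in the transcribed spacers. A rise was thus shared by the rRNA genes, and the spacers lowered the median over all positions. The count was 170, 187 and 136 without untreated replicate 1, 2 and 3. Rescaled to the 18S sum of each library, the calls split into 159 higher and 86 lower.

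CaCl2 + MNase against untreated called 562 of 898 positions, 477 higher and 85 lower, where 54.7% were called over the gene, 32.2% higher and 22.5% lower. The median log2 change was 0.39, against 0.11 over all positions, 0.16 in the 5′ part of 18S, 0.13 in 25S and -0.42 in the spacers. Rescaled to the 18S sum, the split was 354 higher and 126 lower.

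MnCl2 moved the 3′ part both ways. Against untreated 618 positions were called, 389 higher and 229 lower, where 72.9% were called over the gene (28.6% higher, 44.2% lower), and the median log2 change was 0.19 in the 3′ part and -0.19 over all positions. MnCl2 + DNase I against untreated called 649, 381 higher and 268 lower, where 75.7% were called over the gene (27.5% higher, 48.2% lower), with medians of 0.11 and -0.24. The 5′ part of 18S, 25S and the spacers had medians of -0.085, 0.08 and -2.72 with MnCl2. With MnCl2 + DNase I they had -0.16, 0.03 and -2.86. Scaling the libraries by their median ratio over the 35S gene moved the median of all positions to -0.05 and -0.04 in these 2 comparisons. With that scaling the split for MnCl2 + DNase I was 472 higher and 193 lower.

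Adding a nuclease on top of its cation left few calls. CaCl2 + MNase against CaCl2 gave 0 calls by limma in the 3′ part and 0% over the gene. An unadjusted p under 0.05 was found at 30 of 898 positions, and at 156 of 6841 over the gene. Another tool was not run there because the reads of 1 library in each group were not recovered. In windows the same comparison called 0 of 9, where 0% of 69 were called over the gene. MnCl2 + DNase I against MnCl2 gave 1 call, where 0.238% of positions were called over the gene. In that comparison 234 of 898 positions had an unadjusted p under 0.05, as did 1380 of 6725 over the gene. edgeR on the recovered reads called 6 there, and 0 of 9 windows were called, where 1.45% were called over the gene. There were 52 calls when MnCl2 replicate 1 was left out, 42 when MnCl2 replicate 3 was, and 0 when any one of the MnCl2 + DNase I libraries was. Shares over the gene are not given for edgeR or for these fits, so their counts do not set the 3′ part apart. The difference between the MNase and DNase I effects, tested as an interaction in limma over 12 libraries, gave 0 calls, 0% over the gene. Its unadjusted p was under 0.05 at 152 of 898 positions, and at 668 of 6847 over the gene.

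The MnCl2 and CaCl2 groups were also compared with each other. They differed in dose, incubation time and temperature as well as in the cation, and these cannot be told apart. MnCl2 against CaCl2 called 328 positions, 134 higher and 194 lower, where 42.2% were called over the gene (9.54% higher, 32.6% lower), and the count was 212 without MnCl2 replicate 2 and 198 without MnCl2 replicate 3. With median-ratio scaling the direction of the split turned, to 199 higher and 115 lower, as the median over all positions moved from -0.27 to -0.05.

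In windows of 100 nucleotides the changes were unevenly spread along the 3′ part. Nucleotides 1601 to 1700 rose in every treated group, from 11279 summed CPM in untreated to 14588 with CaCl2, 15910 with CaCl2 + MNase, 20912 with MnCl2 alone and 17964 with MnCl2 + DNase I. The log2 changes there were 0.37, 0.50, 0.89 and 0.67 (SE 0.08, 0.06, 0.08 and 0.05), all called, although that with CaCl2 was not when the libraries were rescaled to the 18S sum (0.23). The last window, nucleotides 1701 to 1800, had log2 changes of -0.05 with CaCl2 (not called), 0.18 with CaCl2 + MNase (0.09 and not called with median-ratio scaling), 0.90 with MnCl2 and 1.16 with MnCl2 + DNase I. Nucleotides 1201 to 1300 and 1401 to 1500 rose in all 4 groups, with log2 changes from 0.40 to 0.45 in both windows. With median-ratio scaling these were 0.33 and 0.34 in the CaCl2 groups and 0.58 to 0.62 in the MnCl2 groups, so their order depended on the scaling.

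Fewer windows were lower. Nucleotides 901 to 1000 fell with MnCl2 (log2 change -0.39, SE 0.06, limma adjusted p = 8.8e-05) and with MnCl2 + DNase I (-0.26, SE 0.05), where median-ratio scaling left -0.25 and -0.06, the latter not called. Nucleotides 1501 to 1600, the window with the least signal in all 15 libraries, fell with MnCl2 + DNase I (-0.19, SE 0.05), and median-ratio scaling turned this to 0.01, not called. In all, 5 of 9 windows were called with CaCl2, 8 with CaCl2 + MNase, 6 with MnCl2 alone and 9 with MnCl2 + DNase I, where 36.2%, 71%, 63.8% and 73.9% of the 69 windows of the gene were called. Without untreated replicate 3, CaCl2 called 2 windows. MnCl2 against CaCl2 called 4, where 46.4% were called over the gene: nucleotides 1601 to 1700 (0.51, SE 0.09) and 1701 to 1800 (0.96, SE 0.13) were higher with MnCl2, and nucleotides 901 to 1000 (-0.35, SE 0.06) and 1001 to 1100 (-0.22, SE 0.08) lower. With median-ratio scaling these lower windows were not called, and 5 windows were called higher.

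**Figure D3:**
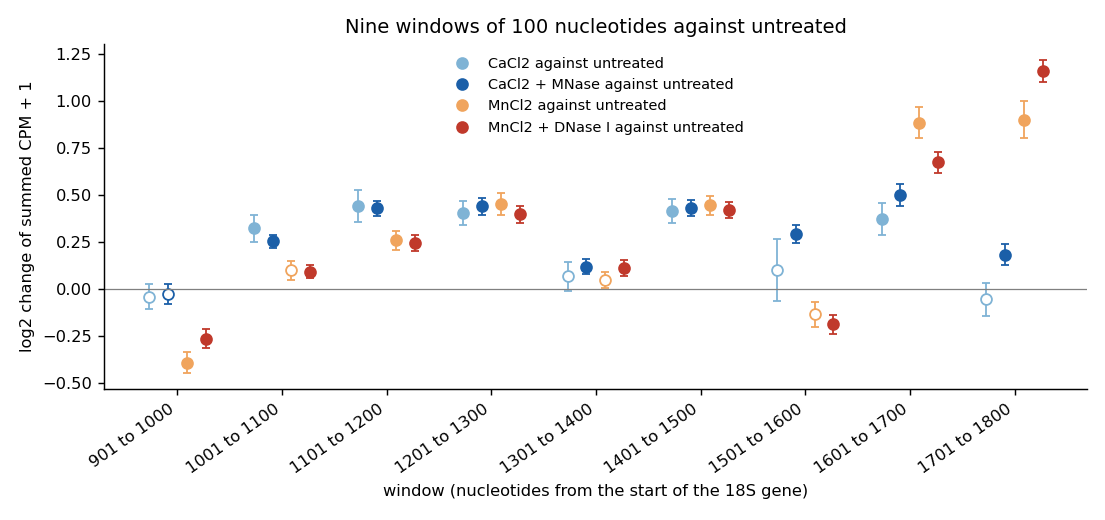
Log2 change of summed CPM + 1 in the 9 windows of 100 nucleotides of the 3′ part of 18S, for each treated group against untreated, with bars of 1 SE; filled points were called at an adjusted p under 0.05 and open points were not. The 2 MnCl2 groups stand highest in the last window, at 0.90 and 1.16, and lowest in the first, at -0.39 and -0.26.

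The largest values of the 3′ part sat at its 3′ end. Nucleotide 1798 (position 2498, chromosome XII 465072) had 5421, 3947 and 4629 CPM in the untreated libraries, 3544, 1169 and 2253 with CaCl2, 2957, 3825 and 3251 with CaCl2 + MNase, 9246, 10826 and 15020 with MnCl2 alone, and 12157, 12759 and 14684 with MnCl2 + DNase I. The 6 MnCl2 and MnCl2 + DNase I libraries lay above all others, the CaCl2 and CaCl2 + MNase libraries lay below all untreated ones, and CaCl2 replicate 2 was the lowest. The log2 change from untreated was 1.31 with MnCl2 (SE 0.28, limma adjusted p = 0.000948) and 1.51 with MnCl2 + DNase I (SE 0.20, adjusted p = 1.67e-05). It was -1.14 with CaCl2 (SE 0.44, adjusted p = 0.0783) and -0.48 with CaCl2 + MNase (SE 0.18, adjusted p = 0.0552), neither of which passed. MnCl2 against CaCl2 differed by 2.44 (SE 0.54, adjusted p = 0.00691), and by 2.02 without CaCl2 replicate 2.

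Nucleotide 1797, 1 base upstream, rose the most of all called positions of the 3′ part in both MnCl2 groups. It had 815, 617 and 725 CPM in untreated, 1274, 464 and 1039 with CaCl2, 1458, 1634 and 1593 with CaCl2 + MNase, 3862, 4462 and 6921 with MnCl2 alone, and 6601, 7001 and 7550 with MnCl2 + DNase I. The untreated and CaCl2 libraries overlapped, and every library of the other 3 groups lay above both. The log2 changes from untreated were 1.13 with CaCl2 + MNase (SE 0.12, limma adjusted p = 0.000270), 2.78 with MnCl2 (SE 0.21, adjusted p = 8.99e-08) and 3.30 with MnCl2 + DNase I (SE 0.13, adjusted p = 2.64e-10). The mean rose 7.07-fold with MnCl2 and 9.81-fold with MnCl2 + DNase I.

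The next bases upstream changed less, and not always in the same direction. Nucleotide 1794 had 895, 992 and 1172 CPM in untreated and 670, 315 and 557 with CaCl2, a log2 change of -1.05 (SE 0.27, limma adjusted p = 0.0226) that did not pass without any one of the untreated libraries. It fell with CaCl2 + MNase (-0.50, SE 0.14, adjusted p = 0.0147), which missed the threshold without untreated replicate 3 (-0.40, adjusted p = 0.0504) or CaCl2 + MNase replicate 3 (-0.40, adjusted p = 0.0581). With MnCl2 + DNase I it had 1588, 1594 and 1627 CPM and rose by 0.66 (SE 0.11, adjusted p = 0.000174). Nucleotides 1795 and 1796 were higher in both MnCl2 groups, with means of 3271 and 2569 CPM in MnCl2 against 1437 and 1062 CPM in untreated.

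The last 5 counted positions together held 8904 ± 990 CPM in untreated, 6295 ± 2870 with CaCl2, 9362 ± 594 with CaCl2 + MNase, 23706 ± 5477 with MnCl2 alone and 29730 ± 2140 with MnCl2 + DNase I (SD, n = 3 each). Their makeup differed too. Nucleotide 1798 was 52.2% ± 3.00 of these 5 in untreated, 49.2% ± 2.65 with MnCl2 and 44.3% ± 1.25 with MnCl2 + DNase I, but 36.4% ± 2.74 with CaCl2 and 35.7% ± 3.38 with CaCl2 + MNase, and the CaCl2 groups overlapped with none of the others. CaCl2 replicate 2 had 3279 CPM in these 5 positions, against 8993 and 6614 CPM in the other libraries of its group.

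**Figure D4:**
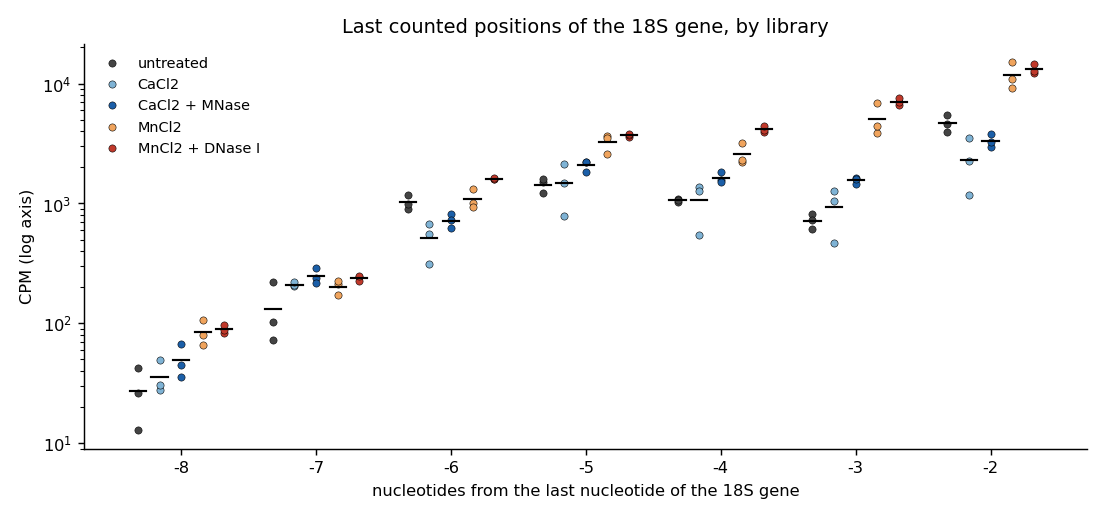
CPM (log axis) at the last 7 counted positions of the 18S gene, by distance from its last nucleotide, with a point for each library and a bar at each group mean. At the rightmost position, nucleotide 1798, the 6 libraries with MnCl2 lie between 9246 and 15020 CPM and the 9 others between 1169 and 5421 CPM.

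The first counted positions past the gene were low in untreated lysate. At position 2503 of ITS1 (chromosome XII 465067) the untreated libraries had 29.5, 24.9 and 31.1 CPM, those with CaCl2 1441, 515 and 1118, those with CaCl2 + MNase 1767, 1421 and 1132, those with MnCl2 1091, 676 and 797, and those with MnCl2 + DNase I 723, 668 and 488. The log2 changes from untreated were 5.00, 5.59, 4.84 and 4.40 (SE 0.34, 0.16, 0.16 and 0.14), all called. Both sides of the mature 3′ end were thus high with MnCl2, whereas with CaCl2 the ITS1 side was high while nucleotide 1798 was not higher than in untreated.

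Upstream of that end, 2 runs of nucleotides had almost no counted 3′ ends with MnCl2. They were found after the values were seen, as runs of at least 5 counted positions with a group mean under 12 CPM, so their levels in those groups follow from the choice and are a description. MnCl2 had 2 such runs, nucleotides 1191 to 1201 and 1782 to 1791 (chromosome XII 465669 to 465679 and 465079 to 465088), and MnCl2 + DNase I had the same 2. The other 3 groups had 0. At this level the first run began at the Nep1 and Tsr3 uridine, 0 nucleotides away, and the second at the second Dim1 adenosine, also 0 nucleotides away. These distances depend on the level of 12 CPM. The modified nucleotides were located by short motifs (GACUCAA for the uridine, UGAACCU for the Dim1 pair, CCGUAGG for a cytidine described below), each of which occurred 1 time in the 35S gene on the transcribed strand, and each was in 15.003% of all stretches of 900 nucleotides of the gene. On the other strand GACUCAA occurred 1 time and the others 0 times. A motif was also tried for a guanosine modified by Bud23 (AUUGCAA). It occurred 0 times in the 3′ part, so that nucleotide was not located or examined. No motif was tried for any other modified nucleotide of the 3′ part, including other targets of the same enzymes.

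The first run, at the uridine, averaged 62.0 CPM per position in untreated, 39.8 with CaCl2, 56.6 with CaCl2 + MNase, 6.02 with MnCl2 alone and 5.26 with MnCl2 + DNase I. Set against the equally long stretch just upstream, this was 35.2% ± 4.16 in untreated, 10.7% ± 3.44 with CaCl2, 16.7% ± 1.80 with CaCl2 + MNase, 1.77% ± 0.148 with MnCl2 alone and 1.40% ± 0.127 with MnCl2 + DNase I (SD, n = 3 each). That upstream stretch averaged 178 CPM per position in untreated and 375, 340, 341 and 377 CPM in the treated groups, in the same order. The percentages therefore also reflect a higher flank. Averages and percentages alike depend on a single peak, nucleotide 1199. It held 443 of the 682 summed CPM of the run in untreated, 119 of 438 with CaCl2 and 191 of 622 with CaCl2 + MNase. The median log2 change of the 11 positions against untreated was 0.05 with CaCl2 and 0.12 with CaCl2 + MNase, so most positions did not fall there. The run was also low relative to its upstream flank in the 3 groups that the choice did not use. Since the groups share much of their profile, this is a description and no separate support. The first run held 176 to 318 reads in the 6 MnCl2 and MnCl2 + DNase I libraries. With CaCl2, which the choice of the run did not use, 3 of its 11 positions were called against untreated, 2 higher and 1 lower, where 32.3% were called over the gene.

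The uridine itself (nucleotide 1191) was low before any treatment. It had 9.30, 9.98 and 8.95 CPM in untreated, 31.4, 32.5 and 31.3 with CaCl2, 26.8, 27.3 and 29.2 with CaCl2 + MNase, 7.76, 8.46 and 9.31 with MnCl2 alone, and 5.98, 9.57 and 7.70 with MnCl2 + DNase I. It rose with CaCl2 (log2 change 1.65, SE 0.23, limma adjusted p = 0.00177) and with CaCl2 + MNase (1.47, SE 0.18, adjusted p = 0.000457). The untreated and MnCl2 libraries overlapped, with a log2 change of -0.13 (SE 0.19, adjusted p = 0.532).

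Nucleotide 1199, 8 bases downstream in the same run, was the position of the 3′ part that fell the most with MnCl2. It had 465, 415 and 448 CPM in untreated, where it was a peak, then 146, 138 and 74.2 with CaCl2, 96.2, 345 and 131 with CaCl2 + MNase, 4.23, 6.53 and 7.19 with MnCl2 alone, and 7.97, 4.33 and 3.44 with MnCl2 + DNase I. The mean was 73.9-fold lower with MnCl2 and 84.3-fold lower with MnCl2 + DNase I. The log2 changes were -6.01 (SE 0.17, limma adjusted p = 2.57e-11) and -6.21 (SE 0.21, adjusted p = 5.80e-11). It also fell with CaCl2 (log2 change -1.94, SE 0.24, adjusted p = 0.00120) and with CaCl2 + MNase (-1.43, SE 0.39, adjusted p = 0.0147). The latter missed the threshold without CaCl2 + MNase replicate 3 (adjusted p = 0.0507).

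The second run, at the Dim1 adenosines, averaged 31.7 CPM per position in untreated, 24.4 with CaCl2, 35.6 with CaCl2 + MNase, 3.55 with MnCl2 alone and 3.53 with MnCl2 + DNase I. The equally long stretch upstream averaged 177 CPM per position in untreated and 203 to 224 CPM in the treated groups. Relative to that stretch the run stood at 17.96% ± 1.90 in untreated, 11.01% ± 6.04 with CaCl2, 17.03% ± 2.81 with CaCl2 + MNase, 1.76% ± 0.274 with MnCl2 and 1.70% ± 0.183 in the group that also had DNase I (SD, n = 3 each). CaCl2 replicate 3 stood at 17.98% and the other CaCl2 libraries at 7.64% and 7.40%. A single position, nucleotide 1791, held 134 of the 317 summed CPM of the run in untreated and 51.2 of 244 with CaCl2. The run held 95 to 180 reads in the 6 MnCl2 and MnCl2 + DNase I libraries.

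The Dim1 pair differed between its members. The first adenosine, nucleotide 1781, stood just outside the run, with 67.2, 79.0 and 43.1 CPM in untreated and 76.2, 73.8 and 74.5 with MnCl2, a log2 change of 0.29 (SE 0.19, limma adjusted p = 0.192). The second, nucleotide 1782, had 21.1, 16.5 and 20.3 CPM in untreated, 19.9, 29.0 and 49.8 with CaCl2, 65.6, 39.95 and 67.4 with CaCl2 + MNase, 8.46, 8.46 and 8.67 with MnCl2 alone, and 10.5, 9.34 and 3.65 with MnCl2 + DNase I. It rose with CaCl2 + MNase (1.5003, SE 0.23, adjusted p = 0.00118) and fell with MnCl2 (-1.08, SE 0.18, adjusted p = 0.000146) and MnCl2 + DNase I (-1.30, SE 0.29, adjusted p = 0.00135). At the downstream edge of the run, nucleotide 1791 fell from 141, 137 and 123 CPM in untreated to 5.29, 4.59 and 8.88 with MnCl2 (log2 change -4.26, SE 0.21, adjusted p = 1.40e-09).

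The cytidine at nucleotide 1773, a target of Kre33, started no such run. The 10 positions from it on averaged 128% of the 10 before it in untreated and 117% with MnCl2. Those positions include the peak at nucleotide 1776, with means of 830 CPM in untreated and 885 with MnCl2. They averaged 175 and 196 CPM, so the percentages rest largely on that peak. Their last position, nucleotide 1782, lies in the second run. The cytidine's own level was 62.0, 59.2 and 64.9 CPM in untreated and 118, 97.9 and 95.6 CPM with MnCl2. It rose in all 4 treated groups, by 0.71, 0.81, 0.73 and 0.60 on the log2 scale with CaCl2 alone, MNase, MnCl2 alone and DNase I in that order, all called. The part of the modifications, and of the reverse transcription step, in these levels was not tested.

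**Figure D5:**
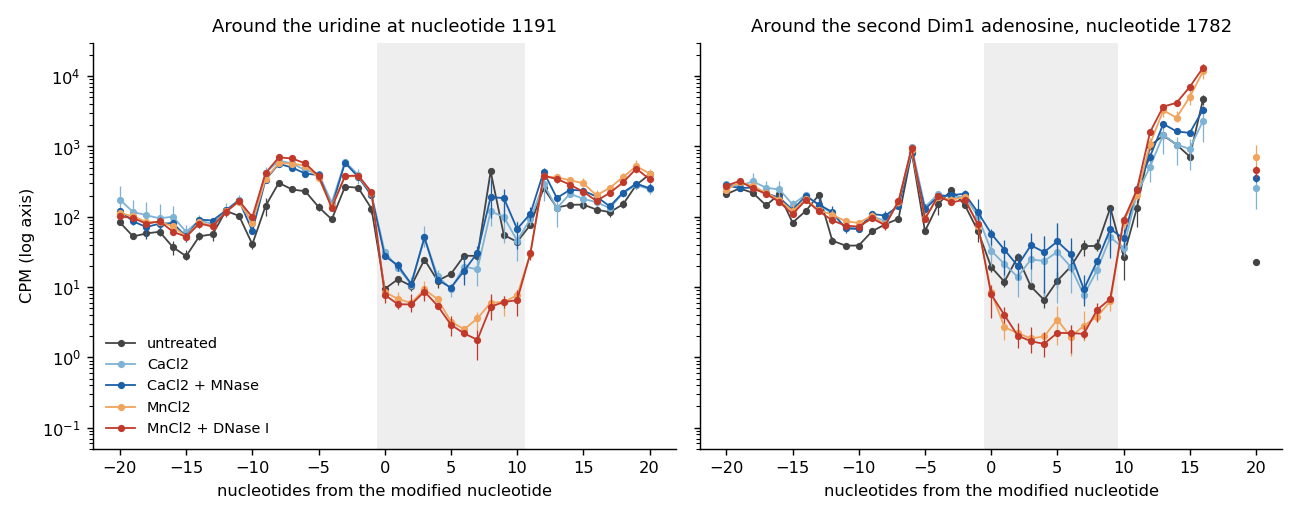
Mean CPM (log axis) of each group at nucleotides from 20 before to 20 after the uridine at nucleotide 1191 (left) and the second Dim1 adenosine at nucleotide 1782 (right), with vertical lines from the lowest to the highest library and gaps at positions with no counts. In the grey runs the MnCl2 groups average 3.53 to 6.02 CPM per position and the other groups 24.4 to 62.0 CPM.

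CaCl2 had its own extremes at other nucleotides. Nucleotide 1067 (position 1767, chromosome XII 465803) had 43.9, 47.4 and 38.2 CPM in untreated, 212, 269 and 241 with CaCl2, 224, 201 and 181 with CaCl2 + MNase, 67.4, 58.3 and 60.1 with MnCl2 alone, and 54.1, 52.4 and 55.5 with MnCl2 + DNase I. The 6 libraries with CaCl2 lay far above the other 9, and those with MnCl2 above untreated. The log2 changes from untreated, 2.45 with CaCl2 (SE 0.16, limma adjusted p = 0.000105) and 2.20 with CaCl2 + MNase (SE 0.13, adjusted p = 2.39e-05), were the largest rises of the 3′ part in these comparisons. MnCl2 against CaCl2 differed by -1.94 (SE 0.15, adjusted p = 4.71e-05).

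The largest fall with CaCl2 was at nucleotide 1789, inside the second low run. It had 40.4, 46.5 and 27.9 CPM in untreated, 5.93, 6.58 and 10.5 with CaCl2 and 7.65, 14.9 and 5.36 with CaCl2 + MNase. The log2 changes were -2.18 (SE 0.31, limma adjusted p = 0.00212) and -2.00 (SE 0.35, adjusted p = 0.00209). Within that run 3 of 10 positions were called lower with CaCl2 and 0 higher, and with CaCl2 + MNase 3 were lower and 4 higher, where 16.3% and 22.5% of all positions were called lower with CaCl2 and CaCl2 + MNase.

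The single call between MnCl2 + DNase I and MnCl2 was nucleotide 1620. It had 188, 146 and 154 CPM with MnCl2 and 111, 103 and 110 with MnCl2 + DNase I, a log2 change of -0.58 (SE 0.11, limma adjusted p = 0.0345). The call was lost without MnCl2 + DNase I replicate 1, 2 or 3 (adjusted p 0.182, 0.180 and 0.303) and with the replicate number as a block (adjusted p = 0.0662).

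The 10 most occupied positions of the 3′ part, by the mean of the group means, were nucleotides 1794 to 1798 at the 3′ end, 1776, the pair 1237 and 1238, and the pair 930 and 931. Since that ranking pools the groups, positions that are high mainly with MnCl2 could enter it, and the joint share of the 10 is not compared between groups. Nucleotide 931 had 1500, 1304 and 1689 CPM in untreated, 2269, 2092 and 2182 with CaCl2, and 2696, 2785 and 2349 with MnCl2. It rose with MnCl2 (log2 change 0.81, SE 0.16, limma adjusted p = 0.000627) and with MnCl2 + DNase I (1.02, SE 0.13, adjusted p = 1.51e-05). With CaCl2 + MNase its change of 0.50 (SE 0.14, adjusted p = 0.0173) missed the threshold without untreated replicate 2 (adjusted p = 0.0590) or CaCl2 + MNase replicate 3 (adjusted p = 0.0636).

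Nucleotide 1238 had 1293, 1207 and 1336 CPM in untreated, 1992, 2835 and 2024 with CaCl2, 1813, 1907 and 2023 with CaCl2 + MNase, 2012, 2177 and 1943 with MnCl2 alone, and 2253, 2497 and 2358 with MnCl2 + DNase I, so that every treated library lay above every untreated one. The log2 changes were 0.82, 0.58, 0.68 and 0.89 (SE 0.23, 0.11, 0.14 and 0.11), all called. The call with CaCl2 (limma adjusted p = 0.0282) was lost without untreated replicate 1, 2 or 3 (adjusted p 0.1003, 0.116 and 0.0986) and with the replicate number as a block (adjusted p = 0.0992). Nucleotide 1776, the peak 6 bases upstream of the second Dim1 adenosine, had group means between 813 and 979 CPM and was called in none of the 7 comparisons, with a change from untreated of 0.24 (SE 0.16) at most.

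The 4 bases did not carry equal signal. In untreated the 234 positions with A had a median of 146 CPM ± 4.84 (SD over libraries, n = 3), against 96.5 ± 8.59 for the 239 with U, 87.1 ± 7.37 for the 182 with C and 84.8 ± 1.11 for the 245 with G. With CaCl2 the A positions changed both ways, 52 of 233 called higher and 35 lower, while of the G positions 72 of 245 were higher and 7 lower, of the U positions 71 of 238 and 9, and of the C positions 64 of 182 and 7. Over the whole 35S gene 201 of 1846 A positions were called higher and 477 lower with CaCl2, against 336 and 227 of 1806 for G, 310 and 229 of 1914 for U, and 252 and 180 of 1279 for C. With MnCl2 the share of the signal of the 3′ part at G positions was 19.2% ± 0.351, against 22.3% ± 0.149 in untreated, and that at U positions, nucleotides 1795 and 1798 among them, was 31.4% ± 0.739 against 27.5% ± 0.691. The lower share was not a lower level at most G positions, whose median was 97.0 CPM ± 1.02 with MnCl2. Of the 245 G positions 105 were called higher with MnCl2 and 63 lower, where 525 and 794 of 1805 were over the gene. For U these were 112 and 48 of 238, and 600 and 815 of 1910.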

How the data were processed

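NET-seq 3′ ends were mapped and counted by the authors, whose processing notes name bcl2fastq 2.20.00, cutadapt 3.4, STAR 2.7.1a, SAMtools 1.6, bedtools 2.28.0 and R 4.0.2. The deposited tables hold CPM per 35S position for each library, which the authors scaled to the library's total on the gene up to T1, beside means, medians, ratios and p-values of their own that were not used. Reads were recovered from CPM steps in 13 of 15 libraries, where 99.91 to 99.99% of positions were whole within 0.02.

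Each comparison was fitted to its 6 libraries with limma 3.58.1 (R 4.3.3, eBayes with trend) on log2(CPM + 1) at positions above 0 in at least 3 libraries, with Benjamini-Hochberg adjustment over all 35S positions, or over 69 windows. The difference of nuclease effects was fitted over 12 libraries. edgeR 4.0.16 was run on recovered reads in 3 comparisons, where all libraries had them. Python 3.11.15, pandas 2.3.3 and numpy 2.4.6 were used elsewhere.

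Named positions were the largest called rise and fall in each comparison, the 10 most occupied, the last 10 counted positions, the first 3 counted in ITS1 and the modified nucleotides located by motif. Members, lists and tests were chosen with earlier results of these data known, and the low runs after their values were seen. Replicate numbers were checked for pairing. In MnCl2 against CaCl2 all 3 same-numbered pairs had a correlation of deviations over 0.1 (r 0.148, 0.214 and 0.114), the level taken as pairing. That level is a choice, so pairing of those libraries by number is possible but not established. In MnCl2 + DNase I against MnCl2 all 3 were positive but below it (0.044, 0.089 and 0.098), and in both comparisons 6 of 6 libraries correlated best with their own number. In CaCl2 + MNase against CaCl2 r was larger but of mixed sign (-0.376, 0.383 and 0.468), and 2 of 6 libraries correlated best with their own number.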

Additional observations from a re-analysis of the deposited data

How the results depend on the processing

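The share of the library in the 3′ part of 18S kept its direction against untreated under every alternative, with log2 ratios without one library of 0.22 to 0.25 for CaCl2, 0.27 to 0.30 for CaCl2 + MNase, 0.33 to 0.36 for MnCl2 alone and 0.35 to 0.39 for MnCl2 + DNase I. As a share of the 18S gene these ratios were 0.085, 0.13, 0.25 and 0.28, and MnCl2 against CaCl2 was 0.16. As a share of the rRNA genes the MnCl2 groups stood at 0.26 and 0.28. Without the 10 most occupied positions, a ranking that pools the groups, the MnCl2 groups stood at 0.20 and 0.15 against untreated, MnCl2 + DNase I at -0.043 against MnCl2, and MnCl2 at -0.060 against CaCl2. Without the last 10 counted positions these were 0.22, 0.19, -0.026 and -0.053. Between the cations the direction of the share thus changed when these last positions were left out.

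Counts of called positions for CaCl2 were 478 with all 15 libraries in one fit and 136 to 450 without one library. MnCl2 + DNase I against MnCl2 called 0 with all 15 libraries, with the replicate block, with a pseudocount of 10 and without the filter on low values, 4 with median-ratio scaling, 6 by edgeR, and 0 to 52 without one library. MnCl2 against CaCl2 called 198 to 396 without one library. Windows called were 3 for CaCl2 rescaled to the 18S sum and 2 to 6 without one library, 0 to 2 for DNase I added to MnCl2 without one library, and, in windows of 50 nucleotides, 14 for CaCl2 + MNase and 13 for MnCl2, both against untreated, and 7 between the cations. For MnCl2 + DNase I against untreated, edgeR split the calls into 489 higher and 188 lower. With the replicate number as a block, positions called were 245, 515, 599 and 638 in the 4 comparisons with untreated and 350 between the cations, so the block moved no other count by over 1.5 times. At named positions, 77 of 1240 repeats ended a call and 0 turned its direction. Unless stated, the cause was not tested. The edgeR fit was not run where CaCl2 replicate 3 or CaCl2 + MNase replicate 3 takes part. Depth limits the low runs, which hold 95 to 318 reads per MnCl2 library.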

Other observations

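Under other levels, chosen after seeing the data, the low runs of the MnCl2 groups remained. At 8 CPM instead of 12 they were nucleotides 1195 to 1201 and 1783 to 1791 in MnCl2, so neither then began at the modified nucleotide. In MnCl2 + DNase I they were nucleotides 1195 to 1201 and 1782 to 1791, the latter still beginning at the second Dim1 adenosine. At 20 CPM there were 5 runs in MnCl2, adding nucleotides 1495 to 1499, 1506 to 1510 and 1695 to 1709, and 6 in MnCl2 + DNase I, against 0 in each of the other groups at either level. The added stretches were not low with MnCl2 only. Nucleotides 1704 to 1709, a run in MnCl2 + DNase I at 10.9 CPM on average, averaged 14.2 with CaCl2 and 15.1 with CaCl2 + MNase. Nucleotides 1495 to 1499 averaged 24.9 in untreated, 24.3 with CaCl2 and 27.0 with CaCl2 + MNase.

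The order of occupancy over the 898 positions was compared between libraries by Spearman's rho, as a description, since neighbouring positions share fragments and depth. Untreated libraries had a mean rho of 0.978 with each other and of 0.874 with CaCl2, 0.882 with CaCl2 + MNase, 0.787 with MnCl2 alone and 0.820 with MnCl2 + DNase I libraries. Libraries with and without DNase I stood at 0.979, and those with and without MNase at 0.949. The CaCl2 group was the least alike within itself, at 0.933.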
